A study of Saccharomyces cerevisiae with 12 samples.

Results

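This comparison sets ITD00185, which the series title leads one to read as its agave strain, against the commercial wine yeast T73 late in fermentation. It holds the 6 arrays of 96 h, 3 of each strain, out of 12 arrays in the series, and the members were chosen by strain and time point as the labels give them. ITD00185 96 h and T73 96 h were cultures of Saccharomyces cerevisiae in synthetic agave must at 28 ºC, with no other treatment in the labels, and each array is labelled as a biological replicate. The strain's total RNA carried Cy5 on every array and a sample mix matched in time carried Cy3, without a dye swap. The sources used here do not give the makeup of that mix.

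Late in the fermentation of a must, yeast cells live on dwindling nitrogen and sugar and in rising ethanol. Poor nitrogen supply frees the activators Gln3 and Gat1 to switch on genes for the uptake and breakdown of poor nitrogen sources, a control known as nitrogen catabolite repression. Loss of glucose lifts the Mig1-dependent repression of genes for other sugars, and stress and starvation act through Msn2 and Msn4 on genes of stationary phase. Growth genes, above all those of the ribosome, are turned down as growth stops. Agave must derives from plants that store fructans, whereas the sugars of grape must are glucose and fructose.

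The values are the deposited log2 ratios of a strain to the mix, so 1 unit is a 2-fold change. A difference is ITD00185 minus T73, given ± its standard error from limma, and the adjusted p-values are those of the same fit after Benjamini-Hochberg adjustment with a threshold of 0.05. The sign assumes that the strain is the numerator, a reading that is likely from the order of the channels in the labels but is not stated. Whether a gene is present, or differs in sequence from its probe, was not measured, so RNA level and hybridization cannot be told apart for a single gene.

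The strains differed at 96 h over a wide part of the genome. Of 5922 genes tested, 2486 were called (42.0%), 1300 of them higher in ITD00185 (22.0% of the genes tested) and 1186 lower (20.0%). Among these, 355 genes were higher and 111 lower in ITD00185 by at least 2 log2 units, which is 4-fold, together 7.87% of the genes tested. The 3 arrays of one strain did not overlap those of the other for 3178 of the 5518 genes with all 6 values (57.6%), 1538 of them higher in ITD00185 (27.9%) and 1640 lower (29.7%). The median gene had a standard deviation over 3 arrays of 0.28 in ITD00185 and 0.24 in T73. In the fit of all 12 arrays, which shares the spread of the 48 h arrays, 1229 of 5474 genes were called (22.5%), and without T73 96 h replicate 1 the count was 1569.

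Across genes the arrays correlated at 0.87 to 0.90 within ITD00185 and at 0.83 to 0.86 within T73, and at 0.51 to 0.69 between the strains. The ratios were spread more widely in ITD00185, with standard deviations over genes of 1.48 to 1.71 against 1.14 to 1.31 in T73. Differences moved with the ratio that both strains share: their median was 0.57 in genes with the highest mean ratio of both strains, -0.05 in the middle group and -0.35 in genes with the lowest, with 1839 or 1840 genes in each of these 3 equal parts. With the arrays scaled to one spread these medians were 0.14, -0.11 and -0.07, and 2281 genes were called (38.5%), 1172 higher (19.8%) and 1109 lower (18.7%). Values from scaled arrays are given beside gene groups whose counts they move by more than 1.5 times, and likewise values without single arrays, all of 96 h unless stated otherwise. The part of the wider spread in the differences was not tested further. The counts called in the gene groups below are to be read beside the 22.0% higher and 20.0% lower of all genes.

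**Figure D1:**
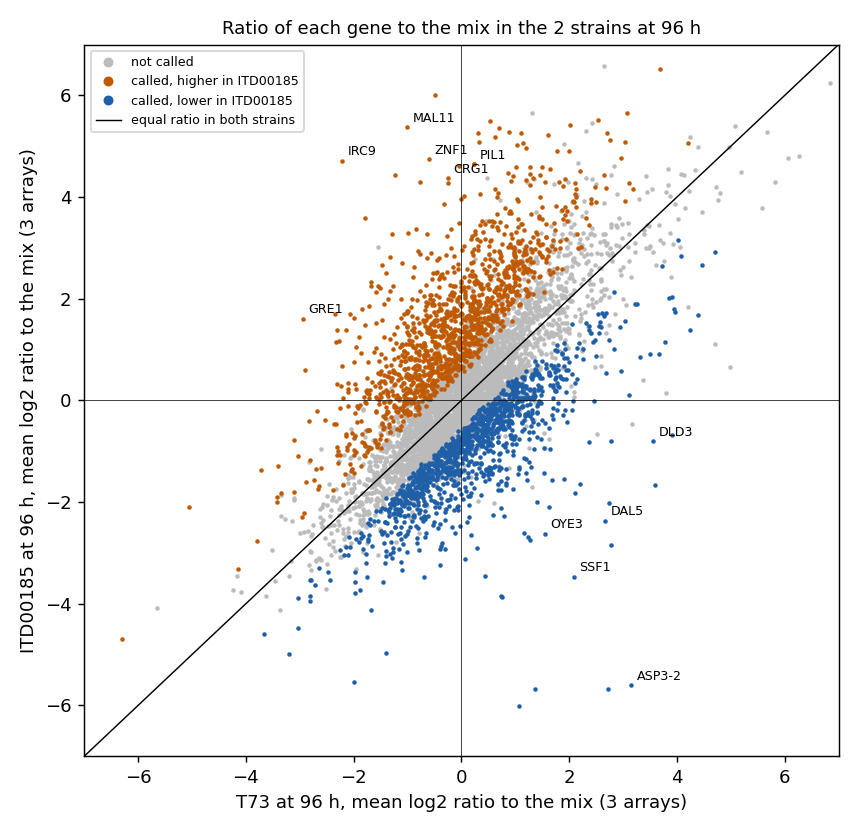
Mean log2 ratio to the mix over 3 arrays in ITD00185 at 96 h (vertical axis) against T73 at 96 h (horizontal axis), 1 point per gene tested, with 5 genes outside the axes of -7 to 7. Orange points are the 1300 genes called higher in ITD00185, blue points the 1186 called lower and grey points the rest; the line marks equal ratios.

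Among genes with a symbol and all 6 values, the one furthest above T73 was IRC9. This gene, whose reading frame overlaps that of YAK1 in the annotation, stood at 4.34, 5.33 and 4.47 in ITD00185, against -2.28, -2.27 and -2.08 in T73, a difference of 6.93 ± 0.29 (adjusted p = 0.00013). YAK1, a kinase that acts in the response to glucose loss, was itself higher by 3.91 ± 0.49. MAL11, a transporter of maltose and other alpha-glucosides, had ratios of 5.46, 3.66 and 6.99 in ITD00185, against -0.94, -1.26 and -0.81 in T73, and differed by 6.37 ± 0.76 (adjusted p = 0.00171). The rule that picked IRC9 and MAL11 required that the arrays of the strains not overlap, and the ITD00185 values of MAL11 were spread over more than 3 units. MIG1, the glucose repressor, gave 3.71, 7.10 and 4.73 in ITD00185, against 0.55, 1.02 and 0.31 in T73 (difference 4.55 ± 0.80, adjusted p = 0.00559). ZNF1, a zinc cluster transcription factor, gave 4.49, 5.67 and 4.09 in ITD00185, against -0.30, -1.11 and -0.40 in T73 (difference 5.35 ± 0.44, adjusted p = 0.0007). CRG1, a methyltransferase, differed by 4.63 ± 0.22, with all T73 arrays between -0.32 and -0.21. PIL1, a core protein of the eisosomes of the plasma membrane, had 4.92, 4.54 and 4.47 in ITD00185, against 0.23, 0.83 and -0.35 in T73 and differed by 4.41 ± 0.32, and ENT3, an epsin-like adaptor of vesicle traffic, differed by 4.51 ± 0.52. GRE1, a stress-induced hydrophilin, stood at 2.12, 1.51 and 1.20 in ITD00185, against -2.86, -3.01 and -2.96 in T73, a difference of 4.55 ± 0.26. The remaining 4 of the 12 largest were MST28 of the DUP240 family (4.57 ± 0.81), ENV11 (4.39 ± 0.52) and the mitochondrial proteins IBA57 (4.28 ± 0.71) and YME2 (4.21 ± 0.97). In MST28, IBA57 and YME2 the ITD00185 arrays differed among themselves by 3 units or more, and the T73 arrays by less than 1.

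Furthest below T73 lay the 4 ASP3 copies, which encode the cell wall asparaginase that releases ammonia from extracellular asparagine. ASP3-3 had -5.95, -5.99 and -6.11 in ITD00185, against 1.12, 1.28 and 0.82 in T73, a difference of -7.09 ± 0.19 (adjusted p = 2.12e-05), and ASP3-1 had -5.60, -5.69 and -5.77 in ITD00185, against 1.74, 1.33 and 1.01 in T73, a difference of -7.05 ± 0.23. ASP3-2 and ASP3-4 differed by -8.75 ± 0.60 and -8.39 ± 0.51. The copies are near-identical neighbours on chromosome XII, so a probe may not separate them and they are not 4 independent results. SSF1, which acts in the processing of ribosomal RNA, stood at -3.02, -3.76 and -3.62 in ITD00185, against 2.06, 2.58 and 1.61 in T73 (difference -5.55 ± 0.32, adjusted p = 0.000319), and its close relative SSF2 stood lower, at -2.97 ± 0.40. DAL5, the allantoate permease, gave -2.96, -1.67 and -2.48 in ITD00185, against 2.82, 2.65 and 2.54 in T73 (difference -5.04 ± 0.33). AGP2, a membrane protein that acts in the uptake of carnitine and polyamines, gave -3.53, -4.12 and -3.95 in ITD00185, against 1.16, 0.66 and 0.44 in T73 (difference -4.62 ± 0.26, adjusted p = 0.000319). STU2, a microtubule-binding protein (-4.59 ± 0.50), DLD3, a cytosolic D-lactate dehydrogenase (-4.36 ± 0.20), OYE3, an NADPH oxidoreductase (-4.17 ± 0.31), and AAH1, adenine deaminase (-4.02 ± 0.30), followed. YJU2, a splicing factor, was also among the 12 at -5.60 ± 1.80, but its T73 arrays read 7.34, 0.67 and 0.31. Its call was lost with scaled arrays (adjusted p = 0.0646), with a robust variance prior, and without any 1 of the 3 ITD00185 arrays.

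**Figure D2:**
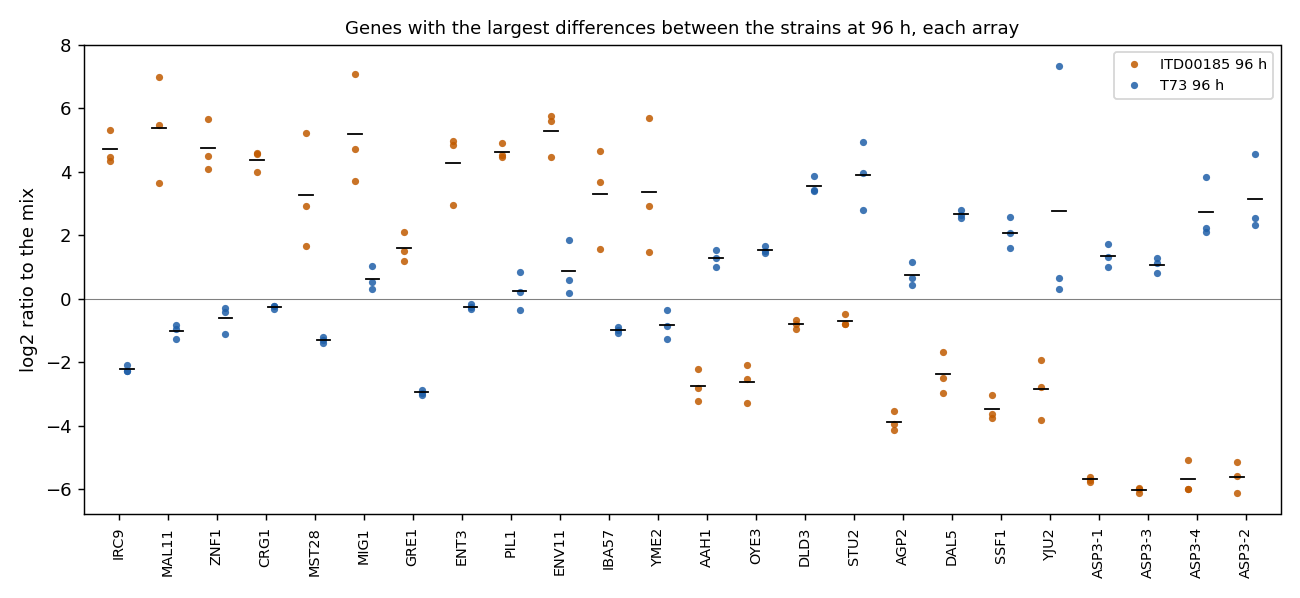
Log2 ratio to the mix on each 96 h array for the 12 genes with the largest differences in each direction; orange points are the ITD00185 arrays, left of the blue T73 arrays of the same gene, and bars are the means of 3. The arrays of the strains do not overlap for any of the 24 genes, and the highest T73 point of YJU2 stands apart from its other arrays.

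Genes under nitrogen catabolite repression were more often lower in ITD00185, while the activators of this control were higher. Of 34 genes tested, 21 were lower and 4 higher, with a median difference of -1.21 against 0.01 over all genes tested. The list median ran from -0.91 to -0.65 on the ITD00185 arrays and from 0.57 to 0.71 on the T73 arrays. With single arrays left out, 18 to 21 members were lower. The ASP3 copies make up 4 of the 21.

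The lower genes spanned uptake and breakdown. DAL1, the allantoinase, had -2.54, -1.88 and -1.92 in ITD00185, against 1.02, 0.57 and 0.60 in T73 (difference -2.85 ± 0.25), and DAL7, a malate synthase of allantoin breakdown, had 0.87, 2.50 and 2.06 in ITD00185, against 4.28, 3.47 and 4.08 in T73 (difference -2.14 ± 0.44). DUR3, the urea permease, stood at -1.63, -0.44 and -1.56 in ITD00185, against 1.52, 1.01 and 1.26 in T73 (-2.47 ± 0.35), and the urea amidolyase gene DUR12 differed by -1.08 ± 0.21. All 3 ammonium permeases were lower in ITD00185, MEP1 by -2.00 ± 0.18, MEP3 by -1.65 ± 0.19 and MEP2, the ammonium sensor, by -1.17 ± 0.26. UGA4, the GABA permease, read -1.55, -1.48 and -1.52 in ITD00185, against 0.86, 0.89 and 0.80 in T73, a difference of -2.37 ± 0.16. GDH2, the glutamate dehydrogenase that releases ammonia, read -2.37, -2.48 and -2.45 in ITD00185, against -0.40, -0.46 and -0.32 in T73, a difference of -2.04 ± 0.16. The general amino acid permease GAP1 differed by only -0.85 ± 0.22 (adjusted p = 0.0225). The 4 higher members were mostly regulators. GAT1, a GATA activator of these genes, had 2.40, 1.86 and 1.64 in ITD00185, against 0.46, 0.44 and 0.54 in T73 (difference 1.49 ± 0.23, adjusted p = 0.00387). GLN3, the other activator, had -0.49, -0.11 and -0.23 in ITD00185, against -1.62, -1.16 and -1.43 in T73 (difference 1.13 ± 0.21), and URE2, which holds Gln3 in the cytosol, had 1.83, 2.45 and 3.16 in ITD00185, against 0.32, 1.41 and 0.34 in T73 (difference 1.79 ± 0.43). The proline oxidase PUT1 differed by 2.35 ± 0.50. The GATA repressors DAL80 and GZF3 were not called, at 0.72 ± 0.33 and 1.31 ± 0.55.

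**Figure D3:**
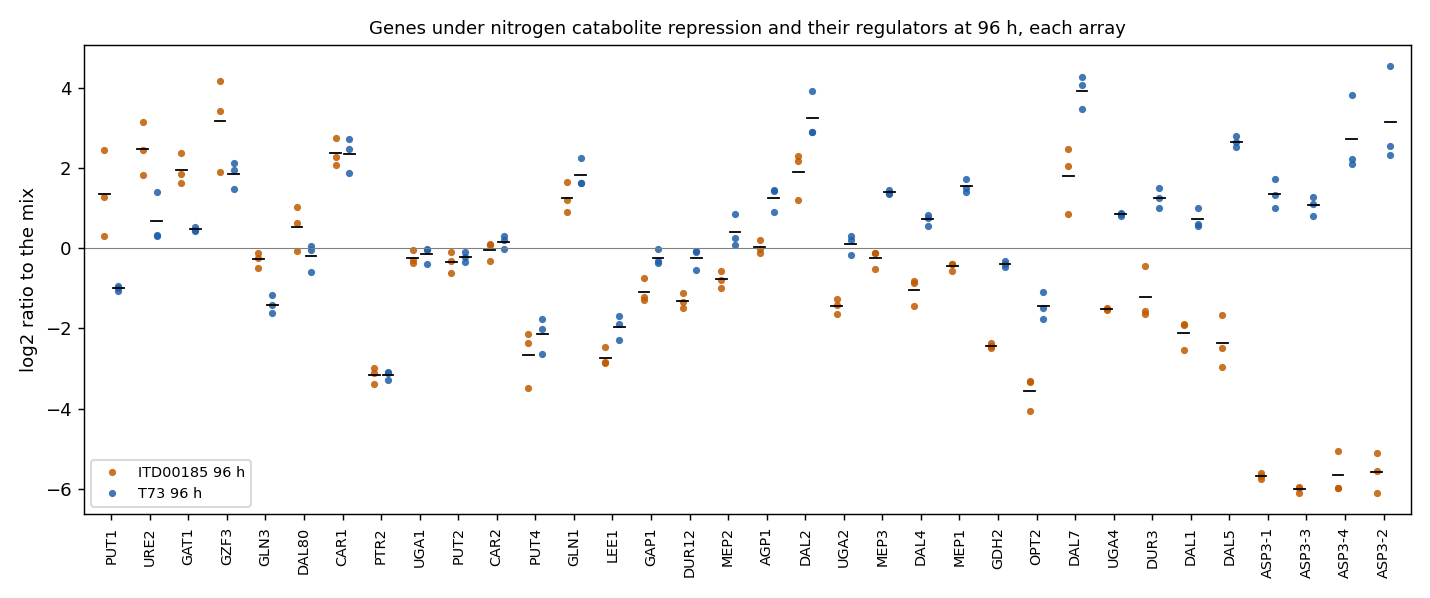
Log2 ratio to the mix on each 96 h array for the 34 genes of nitrogen catabolite repression tested, ordered by the difference; orange points are the ITD00185 arrays, left of the blue T73 arrays, and bars are means. The 21 genes called lower in ITD00185 fill the right of the plot, and the regulators GAT1, GLN3 and URE2 stand among the genes at the left.

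Amino acid permeases and genes for arginine, lysine, histidine and tryptophan synthesis were also lower in ITD00185 more often than higher. Of 16 permeases tested, 7 were lower (43.8%, against 20.0% of all genes) and 3 higher (18.8%, against 22.0%). Only 1 was higher without ITD00185 replicate 3, T73 replicate 1 or T73 replicate 3. DIP5, the permease for glutamate and aspartate, differed by -3.18 ± 0.66, and AGP1 and GNP1, which take up many neutral amino acids, by -1.24 ± 0.22 and -1.05 ± 0.21. MMP1, the S-methylmethionine permease, differed by 1.79 ± 0.21 in the other direction. In arginine, lysine, histidine and tryptophan synthesis 14 of 33 genes were lower (42.4%) and 2 higher (6.06%). ARG7, of ornithine synthesis, read -1.48, -1.06 and -1.36 in ITD00185, against 0.51, 0.45 and 0.58 in T73 (difference -1.81 ± 0.19, adjusted p = 0.00124), and TRP5, tryptophan synthase, read -0.65, -0.98 and -0.85 in ITD00185, against 0.75, 0.78 and 0.98 in T73 (difference -1.66 ± 0.18). ARG4, argininosuccinate lyase, differed by -1.50 ± 0.18 and TRP4 by -1.40 ± 0.17. The 2 higher genes were LYS14, the activator of the lysine genes (1.62 ± 0.32), and LYS20, homocitrate synthase (0.98 ± 0.19). For the synthesis of branched-chain amino acids, 3 of 12 genes were higher (25.0%, against 22.0% of all genes) and 1 lower, and 5 were higher without T73 replicate 3. BAT1, the mitochondrial aminotransferase, differed by 2.80 ± 0.44, ILV5 by 1.90 ± 0.28 and ILV6 by 0.70 ± 0.23, the last with an adjusted p of 0.0468 that was lost without any 1 of 5 arrays. ILV1, threonine deaminase, stood lower, at -1.02 ± 0.20.

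Sulfate assimilation showed 14 lower and 5 higher genes of 34, with 9 lower without ITD00185 96 h replicate 3 or without T73 96 h replicate 1. MET3, ATP sulfurylase, gave 0.43, 1.53 and 0.79 in ITD00185, against 3.76, 3.38 and 3.87 in T73 (difference -2.76 ± 0.31), MET5 of sulfite reductase differed by -1.95 ± 0.20, and MET17, which incorporates sulfide, differed by -2.18 ± 0.26. SAM2, S-adenosylmethionine synthetase, gave -1.48, -0.86 and -1.12 in ITD00185, against 1.20, 1.23 and 1.19 in T73 (difference -2.36 ± 0.21). SSU1, the plasma membrane sulfite pump on which sulfite tolerance of wine yeast depends, went the other way. It read 2.28, 2.35 and 2.09 in ITD00185, against -0.20, -0.10 and 0.28 in T73, a difference of 2.25 ± 0.20 (adjusted p = 0.000914). SUL2, a sulfate permease, differed by 1.13 ± 0.29 and its relative SUL1 by -0.79 ± 0.24. In purine synthesis and uptake 12 of 26 genes were lower and 3 higher, 1 of them without ITD00185 replicate 3 or T73 replicate 1, with FCY22, of the cytosine-purine permease family, at -2.48 ± 0.21, IMD4, IMP dehydrogenase, at -1.40 ± 0.17 and ADE57 at -1.50 ± 0.21. BAS1, an activator of the purine genes, was higher at 1.86 ± 0.50.

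Genes for the use of maltose and related sugars were more often higher in ITD00185. Of 15 tested, 10 were higher and 2 lower, 1 of them without T73 replicate 3, with a median difference of 1.16, and array medians of the list lay between 0.38 and 0.53 in ITD00185 against -1.19 and -0.74 in T73. Beside MAL11, the activators MAL13 and MAL33 differed by 3.44 ± 1.11 and 2.63 ± 0.18, with MAL33 at 1.11, 0.99 and 1.02 in ITD00185, against -1.45, -1.79 and -1.52 in T73. MPH2, an alpha-glucoside permease, read 1.52, 0.33 and 1.93 in ITD00185, against -1.76, -2.01 and -1.90 in T73 (difference 3.15 ± 0.40), and the isomaltases IMA1 and IMA4 differed by 1.58 ± 0.23 and 1.56 ± 0.31. MAL12, a maltase, stood lower, at -1.10 ± 0.18. The MAL, IMA and MPH genes have close copies that probes may not separate. SUC2, the invertase that also splits short fructans, was not called (-0.73 ± 0.31, adjusted p = 0.0995). The hexokinases went in opposite directions. HXK1, the form made when glucose is scarce, read 1.49, 1.15 and 1.57 in ITD00185, against -0.61, -0.48 and -0.82 in T73 (difference 2.04 ± 0.20). HXK2, the form of growth on glucose, read -0.83, -0.85 and -0.14 in ITD00185, against 0.22, 0.49 and 0.45 in T73 (difference -0.99 ± 0.25, adjusted p = 0.0189). The call of HXK2 was lost without T73 96 h replicate 3 (adjusted p = 0.0553) and in the fit of all 12 arrays.

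In hexose transport 7 of 21 genes were higher and 2 lower, with a median difference of 0.27 as deposited and 0.50 on scaled arrays. Lower genes numbered 4 without ITD00185 replicate 1, and 1 on scaled arrays or without ITD00185 replicate 2, T73 replicate 1 or T73 replicate 2. HXT13 read 1.61, 1.72 and 1.68 in ITD00185, against -0.55, -0.72 and -0.45 in T73 (difference 2.24 ± 0.17) and HXT17 differed by 2.39 ± 0.21, while HXT15 and HXT16 differed by 1.85 ± 0.31 and 1.68 ± 0.22. These 4 transporters are near-identical in sequence and known for polyol transport, and probes may not separate them. HXT2, a transporter with high affinity for glucose, differed by 1.82 ± 0.31, and STD1, a regulator in the glucose sensing pathway, by 2.17 ± 0.27. HXT9 and HXT11, also close copies of each other, were lower at -2.01 ± 0.36 and -1.10 ± 0.31. The transporters of glucose-rich media were not called, with HXT1 at 0.15 ± 0.31 and HXT3 at -0.46 ± 0.34.

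In central carbon metabolism the counts depended on single arrays. Of 24 glycolytic genes 8 were lower (33.3%, against 20.0% of all genes) and 5 higher (20.8%, against 22.0%). On scaled arrays these were 5 and 3, beside 18.7% lower and 19.8% higher of all genes. Lower ones numbered 1 without T73 replicate 3, 5 without T73 replicate 1, and 4 without ITD00185 replicate 2 or ITD00185 replicate 3, and in those last settings 3 were higher. Triose phosphate isomerase TPI1 read 0.12, -0.85 and -0.54 in ITD00185, against 0.63, 0.69 and 0.95 in T73 (difference -1.18 ± 0.28). Its call was lost without T73 96 h replicate 3 (adjusted p = 0.0527). PFK27, which makes an activator of phosphofructokinase, differed by -1.02 ± 0.23. GCR1, the activator of the glycolytic genes, was higher by 2.18 ± 0.26. Among 17 genes of ethanol and acetate formation 5 were lower (29.4%) and 1 higher (5.88%). ACS2, acetyl-CoA synthetase, read -1.41, -0.99 and -1.08 in ITD00185, against 0.90, 0.40 and 0.78 in T73 (difference -1.86 ± 0.22), PDC5, a pyruvate decarboxylase, differed by -1.53 ± 0.23 and ADH5 by -1.23 ± 0.20. The decarboxylase activator PDC2 differed by 1.86 ± 0.20. In this group 3 genes were higher on scaled arrays and 2 without ITD00185 replicate 1, and the number of lower genes ran from 3 without ITD00185 96 h replicate 2, ITD00185 96 h replicate 3 or T73 96 h replicate 3 to 9 without ITD00185 96 h replicate 1. In gluconeogenesis and the glyoxylate cycle 10 of 21 were lower (47.6%) and 2 higher (9.52%). Lower genes numbered 6 on scaled arrays and 5 without T73 96 h replicate 1 or T73 96 h replicate 3. CIT2, the peroxisomal citrate synthase, read -3.67, -3.28 and -3.38 in ITD00185, against 0.89, 0.41 and 0.05 in T73 (difference -3.89 ± 0.26, adjusted p = 0.000452), and the lactate and acetate carriers JEN1 and ADY2 differed by -1.54 ± 0.19 and -1.78 ± 0.26. The 2 higher genes were MDH2, cytosolic malate dehydrogenase, at 0.21, 0.60 and 0.17 in ITD00185, against -2.18, -2.29 and -2.47 in T73 (difference 2.64 ± 0.20), and CAT8, the activator of gluconeogenesis (2.26 ± 0.30). In the citric acid cycle 7 of 22 were lower (31.8%, against 20.0% of all genes) and 4 higher (18.2%, against 22.0%). Lower genes numbered 2 without ITD00185 replicate 2 or T73 replicate 1, 3 without ITD00185 replicate 3 or T73 replicate 3 and 4 without T73 replicate 2, and 2 were higher in each of these 5 settings. MDH1, mitochondrial malate dehydrogenase, was higher at 1.68, 2.40 and 2.09 in ITD00185, against -0.83, -0.51 and -0.76 in T73 (difference 2.75 ± 0.24), and IDP1 and IDH2, isocitrate dehydrogenases, stood lower, at -1.35 ± 0.17 and -1.05 ± 0.19.

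Of 38 genes of the respiratory chain and ATP synthase 13 were higher (34.2%, against 22.0% of all genes) and 9 lower (23.7%, against 20.0%). Both directions occurred within complexes. Of complex III, QCR7 read 3.13, 3.91 and 3.58 in ITD00185, against 0.55, 0.91 and 0.23 in T73 (difference 2.98 ± 0.28), QCR6 differed by 2.33 ± 0.42, CYT1 by 1.41 ± 0.20 and QCR2 by 1.08 ± 0.18, against QCR9 at -2.44 ± 0.71. Of ATP synthase, ATP3 differed by 1.95 ± 0.30 and ATP17 by -1.25 ± 0.21. The cytochrome oxidase subunits COX4 and COX5A stood lower, at -1.50 ± 0.26 and -1.28 ± 0.24. The count of lower genes was 5 without ITD00185 96 h replicate 2 or ITD00185 96 h replicate 3. The table held no probe for 8 mitochondrially encoded genes looked for.

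In glycerol metabolism 3 of 15 genes were higher and 3 lower, 20.0% each, close to the 22.0% and 20.0% of all genes. DAK2, dihydroxyacetone kinase, read 4.17 and 4.43 in ITD00185, with no value in replicate 2, against -0.38, -1.21 and -0.71 in T73, a difference of 5.06 ± 0.30. It lies between AQY3 and ZNF1 on chromosome VI, and these neighbours were the only run of at least 3 genes higher by 2 units or more in ITD00185 other than RPN12, HXK1 and YFR054C, on the same chromosome. AQY3, a putative water and glycerol channel, read 16.49 and 4.86 in ITD00185, against -1.60, -1.61 and -1.25 in T73. Since the first of these is beyond 10 in size and 1 value is missing, its difference of 12.16 ± 3.10 has little precision. No run of this kind was lower in ITD00185. GUT2, a mitochondrial dehydrogenase of glycerol use, differed by 1.71 ± 0.22 and GUP2 by -1.87 ± 0.21. Without ITD00185 replicate 3 only 1 gene of the glycerol list was higher. Of 22 trehalose and glycogen genes 3 were higher and 4 lower, shares below those of all genes, with 5 higher without ITD00185 replicate 1 and 1 lower without T73 replicate 1, and with glycogen synthase GSY2 at -1.17 ± 0.27 and the glycogenin GLG2 at 1.39 ± 0.22.

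Stationary phase genes and targets of the factors Msn2 and Msn4 were more often higher in ITD00185. Of 44 tested, 21 were higher and 3 lower, with a median difference of 0.71, and the count of higher genes was 14 to 19 with 1 array left out. Only 1 was lower without ITD00185 replicate 2 or T73 replicate 1. SPG1, needed for survival in stationary phase, read 1.85, 2.69 and 2.07 in ITD00185, against -1.33, -1.59 and -1.62 in T73 (difference 3.72 ± 0.26), MSC1 read 2.23, 1.93 and 2.04 in ITD00185, against -0.71, -0.51 and -0.55 in T73 (difference 2.66 ± 0.18) and RTN2, a reticulon, differed by 2.41 ± 0.20. HSP12, a small membrane-stabilising heat shock protein, differed by 2.20 ± 0.24. SDP1, a stress-induced phosphatase, stood lower, at -1.21 ± 0.26. Array medians of the list lay between -0.24 and 0.02 in ITD00185 against -0.98 and -0.76 in T73, so the list stood at or below the mix in both strains.

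The lists of chaperones and the proteasome had medians above the mix in both strains, and their genes were more often higher in ITD00185. Of 33 chaperone genes 16 were higher and 4 lower, with list medians of 0.83 to 1.64 in ITD00185 against 0.38 to 0.69 in T73. HSP104, the disaggregase, read 2.23, 1.86 and 2.46 in ITD00185, against -0.10, -0.07 and 0.19 in T73 (difference 2.18 ± 0.22), SSA3, an inducible Hsp70, read -0.82, -1.60 and -1.67 in ITD00185, against -3.76, -3.51 and -3.88 in T73 (difference 2.35 ± 0.27) and MDJ1, a mitochondrial Hsp40, differed by 2.90 ± 0.36. HSP10, the mitochondrial cochaperonin, stood lower, at -1.15 ± 0.17. The median difference of 1.06 was 0.54 on scaled arrays, with 11 higher and 3 lower, and SSA4, at 1.40 ± 0.18, lost its call there (0.46, adjusted p = 0.239). The proteasome list had 16 of 36 genes higher and 0 lower, and the list medians were 1.45 to 1.80 in ITD00185 against 0.60 to 1.00 in T73. UMP1, an assembly factor, read 2.63, 3.23 and 2.50 in ITD00185, against 0.44, 0.54 and 0.60 in T73 (difference 2.26 ± 0.24), and the core subunits PRE6 and PUP2 differed by 2.18 ± 0.23 and 2.55 ± 0.32. RPN4, the activator of the proteasome genes, differed by 1.73 ± 0.42. The median difference of 0.67 was 0.39 on scaled arrays, with 15 higher and 0 lower, and 1 gene was lower without ITD00185 replicate 1.

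In the defence against oxidative stress 11 of 35 genes were higher (31.4%, against 22.0% of all genes) and 3 lower (8.57%, against 20.0%). Without ITD00185 96 h replicate 3, 6 were higher. SOD2, mitochondrial superoxide dismutase, read 2.15, 2.32 and 2.01 in ITD00185, against -1.35, -1.15 and -1.46 in T73 (difference 3.48 ± 0.19, adjusted p = 0.000319), and the peroxiredoxin AHP1 differed by 2.44 ± 0.33. SKN7, a regulator of this response, differed by 1.45 ± 0.19, and OYE3 stood at -2.08, -3.27 and -2.51 in ITD00185, against 1.52, 1.68 and 1.45 in T73. Eisosome genes were higher in 8 of 15 cases (53.3%) and lower in 1 (6.67%), or 2 without ITD00185 replicate 1. Beside PIL1, the kinase PKH1 that acts on it read 1.12, 2.03 and 1.22 in ITD00185, against -1.38, -0.91 and -1.32 in T73 (difference 2.66 ± 0.29), and SLM2, a target of the TORC2 pathway, differed by 1.73 ± 0.22. LSP1, the close partner of Pil1, was not called (-0.23 ± 0.32). PUN1, a membrane protein of the same domains, stood lower, at -1.52 ± 0.26. Of 23 endocytosis genes 9 were higher (39.1%) and 2 lower (8.7%), and 7 and 5 on scaled arrays. Clathrin light chain CLC1 differed by 2.23 ± 0.27 and the actin-binding protein ABP1 by 2.54 ± 0.30. In autophagy 11 of 39 were higher (28.2%, against 22.0% of all genes) and 5 lower (12.8%, against 20.0%). But only 4 were higher without ITD00185 96 h replicate 2 or T73 96 h replicate 1. Without ITD00185 96 h replicate 3 or T73 96 h replicate 3, 5 were higher. Lower autophagy genes numbered 2 on scaled arrays, 2 without ITD00185 replicate 3 or T73 replicate 3, and 3 without T73 replicate 1. ATG31 and ATG38, of the initiation and lipid kinase complexes, differed by 1.41 ± 0.29 and 3.30 ± 0.72, the second from only 2 ITD00185 arrays.

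Cytosolic ribosomal proteins were more often lower in ITD00185. Mitochondrial ribosomal proteins and ribosome assembly factors were higher in 30.1% and 28.9% of cases, against 22.0% of all genes. Among 129 genes for cytosolic ribosomal proteins, 58 had a lower ratio and 8 a higher one, with list medians of 0.48 to 1.06 in ITD00185 against 1.43 to 1.57 in T73. On scaled arrays 84 were lower and 2 higher, and the median difference of -0.61 was -1.14. RPS22A read 0.50, 1.23 and 0.98 in ITD00185, against 3.46, 3.20 and 3.85 in T73 (difference -2.60 ± 0.27), RPL23B read 0.65, 0.68 and 0.42 in ITD00185, against 3.06, 2.70 and 3.13 in T73 (difference -2.38 ± 0.20) and RPL2A differed by -1.72 ± 0.17. The 8 higher genes were mostly pairs, RPL24A (1.72 ± 0.38) with RPL24B, RPL19A with RPL19B and RPL35A with RPL35B, and in addition RPL13A and RPL36A. Probes may not separate the A and B copies, and the number of higher genes ran from 2 without T73 96 h replicate 1 or T73 96 h replicate 3, over 5 without ITD00185 96 h replicate 3, to 13 without ITD00185 96 h replicate 1. Of 73 mitochondrial ribosomal protein genes 22 were higher and 4 lower, among them MRPL11 at 3.09, 3.61 and 3.84 in ITD00185, against 0.36, 1.39 and 0.39 in T73 (difference 2.80 ± 0.35) and MRPL8 at 1.51 ± 0.18. Their median difference of 0.56 was 0.17 on scaled arrays, with 18 higher and 4 lower, and only 2 were lower with any 1 array left out except T73 replicate 2. Of 90 ribosome biogenesis genes 26 were higher and 9 lower, with NOP1, the fibrillarin of ribosomal RNA methylation, at 0.92, 1.13 and 1.11 in ITD00185, against -1.15, -1.24 and -1.05 in T73 (difference 2.20 ± 0.17) and NSA1 at 2.06 ± 0.25. That median of 0.53 was 0.14 on scaled arrays, with 21 higher and 13 lower, and 13, 17 and 16 were higher without ITD00185 96 h replicate 2, T73 96 h replicate 1 and T73 96 h replicate 3. Of RNA polymerases I and III and their factors, 8 of 25 were higher (32.0%, against 22.0% of all genes) and 6 lower (24.0%, against 20.0%). On scaled arrays these were 4 and 6, beside 19.8% higher and 18.7% lower of all genes. Higher genes numbered 4 without ITD00185 replicate 3 and 5 without T73 replicate 1 or T73 replicate 3. Lower ones numbered 3 without ITD00185 replicate 1 or ITD00185 replicate 3, 1 without T73 replicate 1 and 2 without T73 replicate 3. RPC82 read 2.66, 2.38 and 2.46 in ITD00185, against -0.56, -0.33 and -0.52 in T73 (difference 2.97 ± 0.18).

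Genes of lipid synthesis were more often lower in ITD00185. Ergosterol synthesis had 17 of 29 genes lower against 1 higher, with a median difference of -1.01 and 15 to 18 lower with 1 array left out. The list medians lay between -0.68 and -0.24 in ITD00185 and between 0.25 and 0.53 in T73. ERG3, a sterol desaturase, read -2.39, -1.78 and -2.10 in ITD00185, against -0.03, -0.24 and 0.01 in T73 (difference -2.00 ± 0.22), MVD1, of the mevalonate steps, read -0.91, -0.24 and -0.71 in ITD00185, against 1.34, 1.07 and 1.58 in T73 (difference -1.95 ± 0.25), ERG26 differed by -1.68 ± 0.21 and ERG4, of the last step, by -1.50 ± 0.19. ERG9, squalene synthase, was the gene called higher, at 0.88 ± 0.22, and lost its call without ITD00185 96 h replicate 3 or T73 96 h replicate 3. Higher genes numbered 2 on scaled arrays and 3 without ITD00185 replicate 1. In fatty acid and phospholipid synthesis 18 of 35 were lower and 4 higher, with 15 lower on scaled arrays and 12 to 16 with 1 array left out. INO1, of inositol synthesis, read -3.14, -3.66 and -2.89 in ITD00185, against -0.32, -0.72 and -0.12 in T73 (difference -2.84 ± 0.27), EPT1, an ethanolamine phosphotransferase, read -1.72, -1.65 and -1.88 in ITD00185, against 1.11, 0.61 and 1.18 in T73 (difference -2.71 ± 0.22), and the phosphatidylethanolamine methyltransferases CHO2 and OPI3 differed by -1.84 ± 0.22 and -2.07 ± 0.32. PSD1, the mitochondrial phosphatidylserine decarboxylase, differed by -1.97 ± 0.20 and the fatty acid synthase gene FAS1 by -1.63 ± 0.27. INO2, the activator of these genes, was higher at 2.29, 1.03 and 3.15 in ITD00185, against -0.40, -0.77 and -1.14 in T73 (difference 2.92 ± 0.52), and its repressor gene OPI1 was lower at -1.42 ± 0.43. The other 3 higher genes were LRO1, which moves acyl chains into triacylglycerol (2.21 ± 0.24), SCT1 (2.16 ± 0.29) and the inositol permease ITR2 (2.11 ± 0.24).

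Of 19 genes of aroma formation 8 were lower and 3 higher, but 6 and 5 on scaled arrays, where the median difference of -0.24 was -0.09. Without T73 96 h replicate 3 only 5 were lower. ATF2, an alcohol acetyltransferase that makes acetate esters, read -1.51, -1.04 and -1.41 in ITD00185, against 0.61 and 0.86 in T73, with no value in T73 replicate 1 (difference -2.06 ± 0.24). The ethyl ester synthases EHT1 and EEB1 differed by -1.90 ± 0.21 and -1.77 ± 0.27, and ARO8, the transaminase of aromatic amino acids, by -2.25 ± 0.23. ATF1, the main acetate ester synthase, was not called (-0.64 ± 0.23, adjusted p = 0.0601). AAD3, a putative aryl alcohol dehydrogenase, was higher by 2.25 ± 0.20.

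For metals and vitamins the balance of directions differed between lists and settings. Of 30 iron genes 10 were lower and 3 higher, with 6 lower without T73 96 h replicate 1. The reductases FRE3 and FRE7 differed by -2.00 ± 0.26 and -1.32 ± 0.17 and the cell wall mannoprotein FIT2 by -1.26 ± 0.19. AFT1, an activator of iron uptake genes, read 3.99 and 4.84 in ITD00185, against 0.79, 1.80 and 0.31 in T73, with 1 ITD00185 value missing. Its difference was 3.45 ± 0.50, and FIT3 was also higher at 1.75 ± 0.22. Of 35 copper, zinc and phosphate genes 13 were lower and 6 higher, with CTR3, a copper permease, at -1.55, -1.15 and -1.23 in ITD00185, against 1.35, 1.39 and 1.15 in T73 (difference -2.60 ± 0.19) and the acid phosphatase PHO12 at 2.43 ± 0.30. In that group 8 were lower and 7 higher on scaled arrays, and 8, 7, 5 and 6 were lower without ITD00185 96 h replicate 2, ITD00185 96 h replicate 3, T73 96 h replicate 1 and T73 96 h replicate 3. Of 35 thiamine, biotin and NAD genes 13 were lower and 3 higher. BIO5, the permease for a biotin precursor, read -5.15, -6.01 and -5.46 in ITD00185, against -1.59, -2.17 and -2.23 in T73 (difference -3.55 ± 0.29), BIO3 differed by -2.25 ± 0.29, and THI5 and THI12, close copies that act in thiamine synthesis, by -2.45 ± 0.17 and -2.49 ± 0.19.

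At the cell surface, 11 of 47 cell wall genes were lower (23.4%, against 20.0% of all genes) and 8 higher (17.0%, against 22.0%). Lower ones numbered 6 without T73 96 h replicate 1 and 7 without T73 96 h replicate 3. SCW10, a wall glucanase, read 0.01, -0.05 and 0.35 in ITD00185, against 2.92, 3.25 and 3.15 in T73 (difference -3.00 ± 0.20) and GAS2 differed by -3.40 ± 0.27, against SED1, a main wall protein of stationary cells, at 2.55, 2.88 and 2.16 in ITD00185, against -0.30, -0.12 and -0.95 in T73 (difference 2.99 ± 0.29). Of 13 genes of flocculins, agglutinins and their regulators 6 were lower and 1 higher, but 2 were lower on scaled arrays and 3 without T73 96 h replicate 1, and 2 were higher without ITD00185 replicate 1. MSS11, an activator of the flocculin genes, read -1.60, -1.25 and -1.45 in ITD00185, against 0.53, 0.41 and 0.60 in T73 (difference -1.95 ± 0.18), and FLO9 differed by -1.43 ± 0.27. Of 27 seripauperin and anaerobic mannoprotein genes 5 were higher (18.5%, against 22.0% of all genes) and 2 lower as deposited. On scaled arrays these were 12 and 2, and PAU19 stood at 1.34 ± 0.25 as deposited. The members of this family are close copies, and 1 was higher without T73 96 h replicate 1 and 3 without ITD00185 replicate 3. In the DUP240 family, membrane proteins encoded in tandem repeats, 8 of 9 genes were higher and 1 lower. UIP3 read 5.38 and 3.90 in ITD00185, against 0.10, 0.08 and 0.55 in T73 (difference 4.40 ± 0.46), PRM8 differed by 3.51 ± 0.29 and MST27 by 3.64 ± 0.47. Many of these genes lacked a value in ITD00185 96 h replicate 2, and the higher genes numbered 3 with ITD00185 96 h replicate 1 left out and 4 with ITD00185 96 h replicate 3 left out.

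Meiotic genes were lower in ITD00185 in 16 of 44 cases and higher in 4, with 10 lower without ITD00185 96 h replicate 2 or ITD00185 96 h replicate 3 and 9 without T73 96 h replicate 3. Higher ones numbered 2 without ITD00185 replicate 1 or T73 replicate 3 and 1 without T73 replicate 1. RED1, of the chromosome axis of meiosis, read -1.28, -1.32 and -2.39 in ITD00185, against 4.26 and 2.94 in T73, with no value in T73 replicate 1 (difference -5.26 ± 0.52). Its partner HOP1 differed by -1.40 ± 0.23, which was not called on scaled arrays (-0.72, adjusted p = 0.0515), and ADY3, of the prospore membrane, by -2.23 ± 0.31. Of 48 cell cycle and replication genes 5 were higher and 8 lower, below the shares over all genes. Higher ones numbered 3 on scaled arrays, 9 without ITD00185 replicate 1 and 2 without ITD00185 replicate 3, T73 replicate 1 or T73 replicate 3, and lower ones 5 without ITD00185 replicate 2 and 4 without T73 replicate 1. The histone genes HTB2 and HTA1 stood at -1.95 ± 0.20 and -1.24 ± 0.17. Of 21 mating genes 5 were lower (23.8%, against 20.0% of all genes) and 1 higher, but 3 and 2 on scaled arrays. Lower ones numbered 2 without T73 replicate 1 and 3 without any 1 of the ITD00185 arrays or T73 replicate 3, and higher ones 2 without T73 replicate 2 and 0 without ITD00185 replicate 2, ITD00185 replicate 3 or T73 replicate 1. GPA1, the G protein subunit of the pheromone pathway, differed by -1.73 ± 0.28 and STE12, the transcription factor of that pathway, by -1.34 ± 0.20. MFA1, the gene of the a-factor pheromone, had ratios of -0.32, -0.51 and 0.54 in T73 and no value in ITD00185, and was not tested. In the opposite pattern, EPO1, PAH1 and UTP10 had values on all ITD00185 arrays and on no T73 array, with means of -2.41, -1.29 and -1.25. Here a missing value does not mean a low level, since the sources used here do not give the filter behind missing values.

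**Figure D4:**
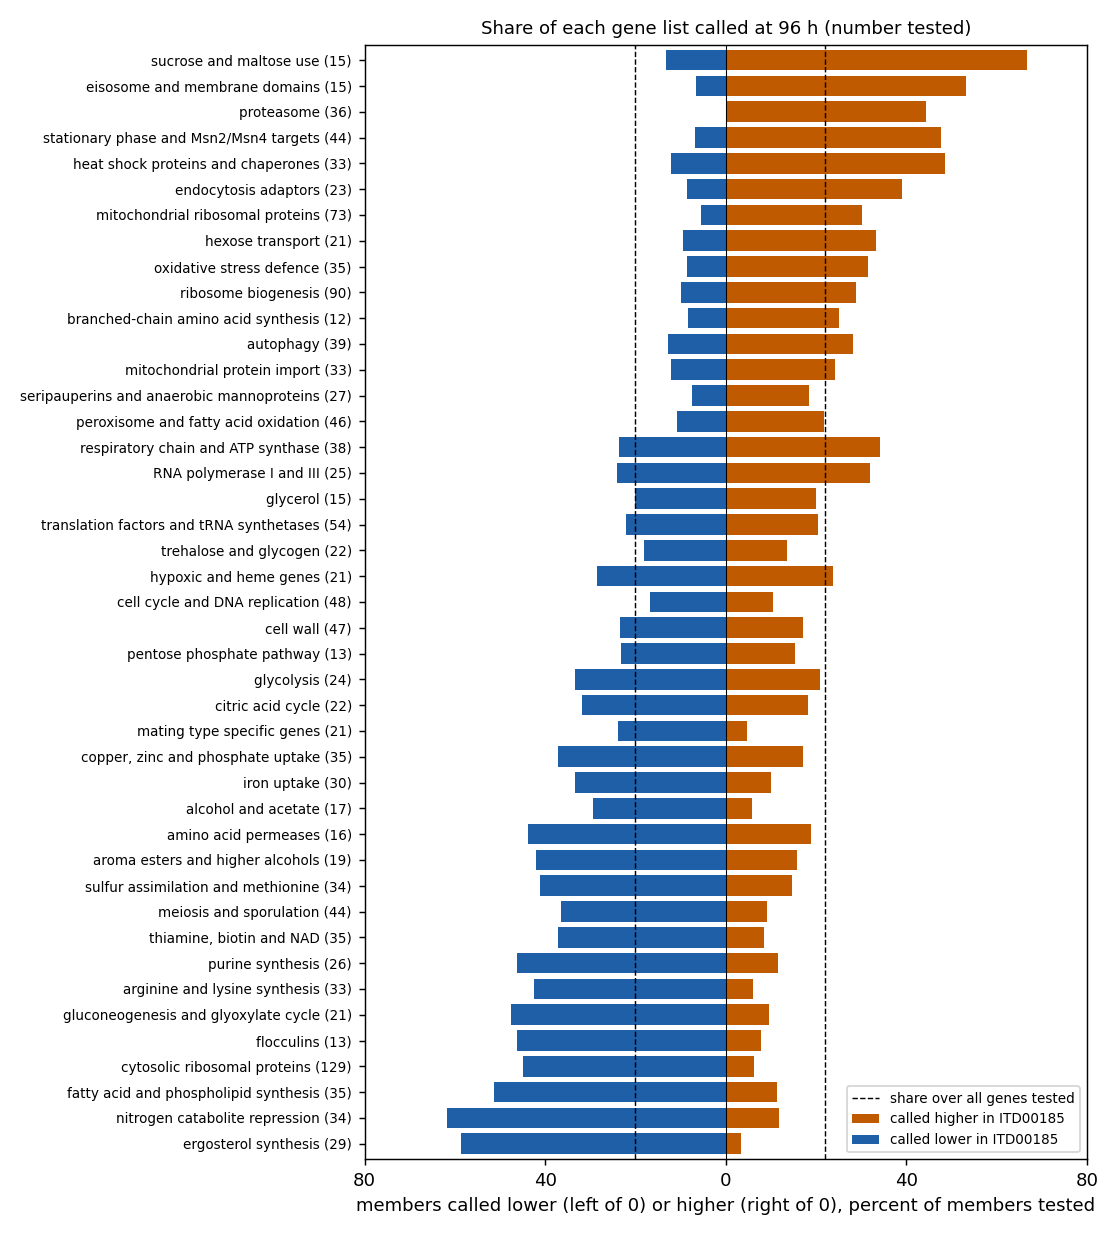
Percent of the members tested that were called lower (blue, left of 0) or higher (orange, right of 0) in ITD00185 at 96 h, for the 43 gene lists with at least 12 genes tested, whose number stands in brackets. The dashed lines are the shares over all 5922 genes, 20.0% lower and 22.0% higher; nitrogen catabolite repression and ergosterol synthesis reach furthest left, and maltose use furthest right.

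The last question was how far the difference between the strains at 96 h was already present at 48 h. In a fit of the 6 arrays of 48 h alone, 778 of 5522 genes were called (14.1%), 258 higher (4.67%) and 520 lower (9.42%) in ITD00185. Of 5474 genes tested at both times, 382 were called at both, which is 16.2% of the calls at 96 h and 49.2% of those at 48 h. Of these, 104 were higher and 122 lower at both times, while 140 were lower at 48 h and higher at 96 h and 16 were higher at 48 h and lower at 96 h. Across genes the differences at 48 h and 96 h correlated at r = -0.10, as a description over 5474 genes that are not independent. The 48 h fit behind these counts and this correlation includes ITD00185 replicate 2 of 48 h, described below. It was not repeated without that array or on scaled arrays. The change of the difference was called for 2080 genes (38.0%), upward from 48 h to 96 h for 1333 (24.4%) and downward for 747 (13.6%). On scaled arrays 1215 were called (22.2%), 734 upward (13.4%) and 481 downward (8.79%). Replicate 2 of ITD00185 at 48 h was unlike the rest of its group: it correlated at 0.40 and 0.50 with those arrays and at 0.81 to 0.84 with the ITD00185 arrays of 96 h, and without it 2894 of 5344 genes were called (54.2%), 1635 upward (30.6%) and 1259 downward (23.6%).

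Nitrogen catabolite repression and ergosterol synthesis had median differences of like size at both times, though single members changed. In the nitrogen list the change was called upward for 7 of 34 genes and downward for 6. In the ergosterol list it was called upward for 5 of 28 and downward for 4. Of all genes, 24.4% were called upward and 13.6% downward. List medians over time are those of the genes tested at both times. The median of the nitrogen list was -1.34 at 48 h and -1.21 at 96 h, that of the ergosterol list -1.14 at 48 h and -1.02 at 96 h, and for DAL5, at -5.44 and -5.04, the change was not called (adjusted p = 0.491). Within the nitrogen list GAT1 changed direction, from -2.55 at 48 h to 1.49 at 96 h, a change of 4.04 (adjusted p = 0.00242). Maltose genes differed by a median of 2.25 at 48 h and 1.02 at 96 h. IRC9 (6.29 and 6.93) and GRE1 (3.74 and 4.55) had no called change.

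The medians of chaperones, proteasome and mitochondrial ribosomal proteins lay below 0 at 48 h and above 0 at 96 h. Over all genes tested the median difference was -0.31 at 48 h and 0.01 at 96 h. The median difference of the chaperones was -1.82 at 48 h and 1.06 at 96 h, with an upward change called for 20 of 33 genes, 17 on scaled arrays and 22 without ITD00185 48 h replicate 2. For MDJ1 the difference was -3.90 at 48 h and 2.90 at 96 h, a change of 6.80 (adjusted p = 0.0018). The proteasome list had medians of -0.94 at 48 h and 0.67 at 96 h, and 22 of 36 genes were called upward and 0 downward. On scaled arrays 7 of them were called upward. For mitochondrial ribosomal proteins the medians were -1.04 at 48 h and 0.43 at 96 h, with 31 of 61 called upward and 1 downward, and 10 and 1 on scaled arrays. Of all genes, 24.4% were called upward as deposited and 13.4% on scaled arrays. The median change was 2.65 for chaperones, 1.68 for the proteasome, 1.80 for mitochondrial ribosomal proteins and 0.20 over all genes. On scaled arrays these were 2.01, 0.36, 0.58 and -0.05. PIL1 (-2.28 at 48 h and 4.41 at 96 h) changed by 6.69 (adjusted p = 0.0018), and MIG1 (-3.72 and 4.55) by 8.27 (adjusted p = 0.0042). The difference at 48 h alone was not called for either of them.

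In other lists more genes were called downward than upward. Of all genes, 13.6% were called downward and 24.4% upward, and 8.79% and 13.4% on scaled arrays. Branched-chain amino acid synthesis had a median difference of 2.28 at 48 h and 0.25 at 96 h, with 7 of 11 genes called downward and 0 upward. In the citric acid cycle the medians were 0.55 and -0.28 with 10 of 22 called downward and 4 upward, and 4 and 2 on scaled arrays. In glycolysis they were 0.74 and -0.37 with 9 of 24 called downward and 3 upward, and 5 and 3 on scaled arrays. Iron uptake had 0.44 and -0.44 with 11 of 29 called downward and 1 upward, and 4 and 2 on scaled arrays. In sulfur assimilation, at -0.02 and -0.54, 11 of 34 were called downward and 3 upward, and 15 and 0 on scaled arrays. For cytosolic ribosomal proteins the balance turned with scaling. As deposited 17 of 127 were called downward and 28 upward, and on scaled arrays 59 and 0.

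**Figure D5:**
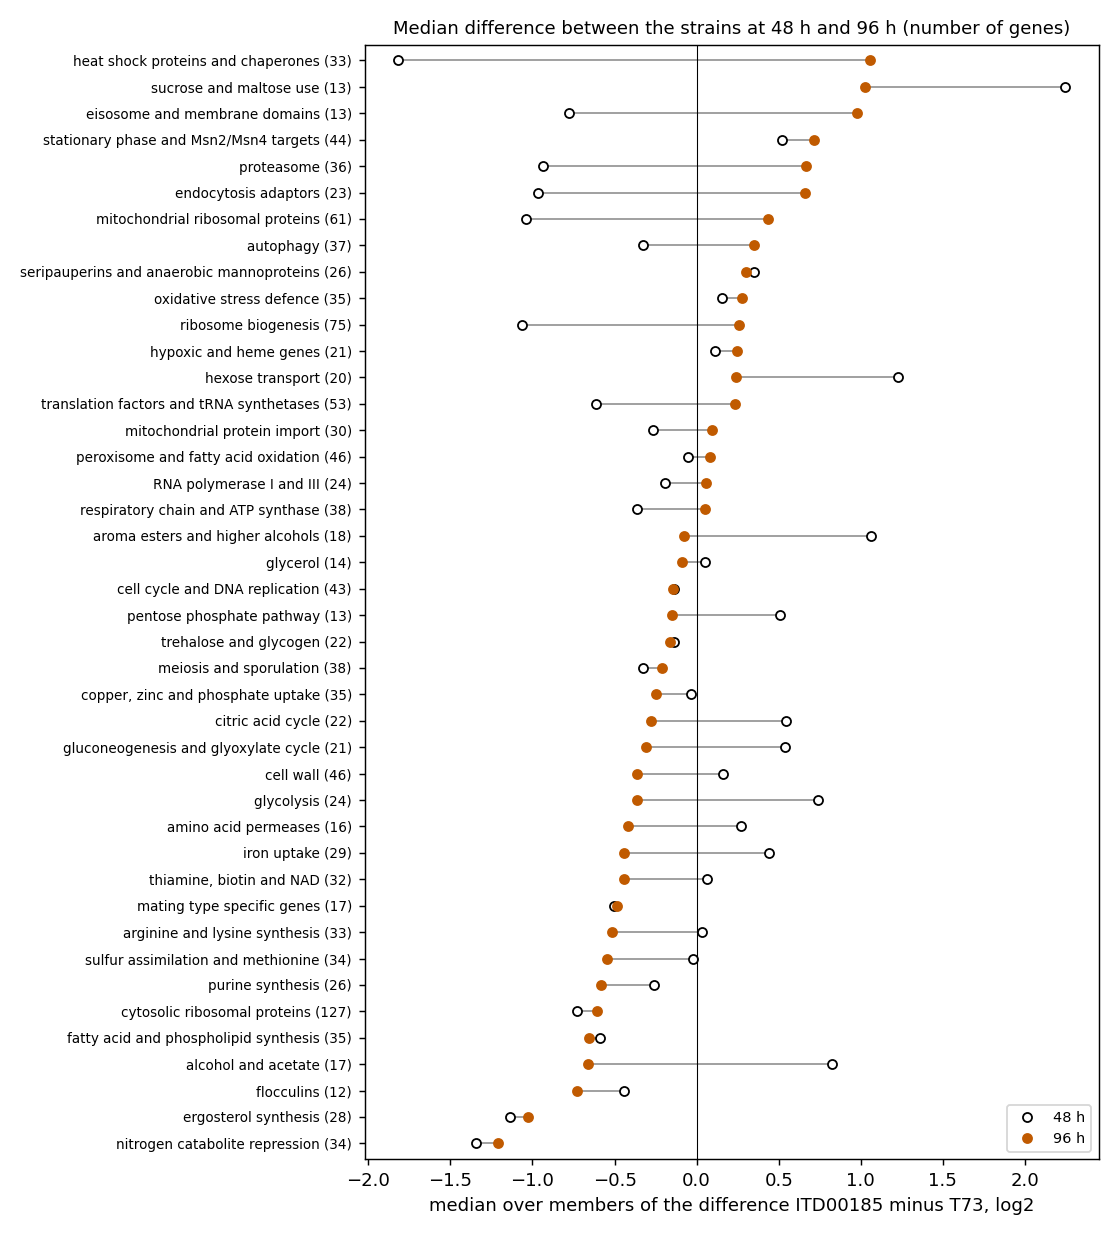
Median over the members of a list of the difference ITD00185 minus T73 (log2) at 48 h (open circles) and 96 h (orange circles), for the 42 lists with at least 12 genes tested at both times, whose number stands in brackets. Nitrogen catabolite repression and ergosterol synthesis lie left of 0 at both times, and chaperones and proteasome lie left of 0 at 48 h and right of it at 96 h. Over all genes tested the median was -0.31 at 48 h and 0.01 at 96 h.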

How the data were processed

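RNA of each strain was hybridized against a mix of samples on 2-colour arrays. Per the labels' protocols, the labelling was indirect, on cDNA from linearly amplified total RNA. The deposited values are log2 ratios, 1 per probe and array. Scanning, background correction, filtering and normalization are not given in the sources used here, and intensities were not used here, so depth is unknown and the number of arrays limits the precision. The arrays had neither one median nor one spread.

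Of 6246 probes, 5753 were named by systematic name and 34 by synonym from the gene table of S288C, assembly R64, and 459 kept their own names. Probes of a gene were averaged, which gave 6214 genes. Genes with at least 2 values per strain were tested on the 6 arrays of 96 h with limma 3.58.1 in R 4.3.3 (lmFit and eBayes, 2-sided, Benjamini-Hochberg, threshold 0.05, 4 residual and 2.90 prior degrees of freedom), a procedure first tested on simulated data. Standard errors are moderated. Between 5817 and 6116 probes had a value on each of these arrays. The change between 48 h and 96 h was tested as an interaction in a limma fit of 4 group means on all 12 arrays, for 5474 genes with at least 2 values in each group.

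The rule for naming genes took the 12 largest differences in each direction among called genes with a symbol, all 6 values and no overlap between strains. It added, for each of 47 gene lists with at least 2 members called in one direction, up to 4 members with the smallest p in the direction with more calls and 1 in the other, neighbouring runs, and genes with values in 1 strain only. The largest differences and the list members gave 227 genes, of which a part is printed. Genes named only for a run or for values in 1 strain are not counted among these 227. Other members named, such as regulators and members not called, were chosen after their values were seen. The members and lists were chosen with earlier results of these data known, and the lists are described by counts and medians, without a list test. Alternatives covered centring, scaling, quantile normalization, array weights, a robust prior, filters on values, single probes, the 12-array fit, a replicate block and leaving out each array. Promoter motif searches were not run, for want of sequences here.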

Additional observations from a re-analysis of the deposited data

Results flagged for a closer look

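Of 212 named genes tested for a change of the difference between 48 h and 96 h, 110 had a called change in limma's interaction fit. Among all 2352 genes called at 96 h and tested for it, 1221 had one, and among all genes tested 38.0%. The named genes were picked on the 96 h arrays that also enter the change, so their share is not particular to them. Given here are the named genes with a called change among the 24 largest differences at 96 h and those called at both times in opposite directions. Each has the difference at 96 h minus that at 48 h on the log2 scale.

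Among the genes lower in ITD00185 at 96 h, the gap to T73 was wider at 96 h for ASP3-3 by -0.96, ASP3-1 by -1.14, SSF1 by -3.87, DLD3 by -2.98, OYE3 by -1.49 and AAH1 by -1.27. Their adjusted p ran from 0.00180 to 0.0498, and each was called without ITD00185 48 h replicate 2 as well. Among the genes higher in ITD00185, ZNF1 changed by -2.52 (adjusted p = 0.0191), with a larger gap at 48 h, and could not be tested without that array. The other higher genes changed upward: MIG1 by 8.27, ENT3 by 5.00, PIL1 by 6.69, ENV11 by 7.28, IBA57 by 3.32 and YME2 by 7.49. Their adjusted p ran from 0.00180 to 0.0388. Without ITD00185 48 h replicate 2 these were 9.70, 5.36, 7.49, 8.43, 3.37 and 8.48.

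In all, 10 named genes were called at both times in opposite directions. GAT1, the GATA activator, changed by 4.04, from -2.55 at 48 h to 1.49 at 96 h. STD1, of glucose sensing, changed by 6.51, from -4.34 to 2.17. The chaperones MDJ1 and SSA4 changed by 6.80 and 6.33, the mitochondrial ribosomal protein MRP51 by 5.56 and the helicase DBP8 of ribosome assembly by 4.17. RPC82 and TFC7, of RNA polymerase III and its factor, changed by 5.58 and 3.98, and ATG26, a sterol glucosyltransferase, by 4.55. HEM1, the first enzyme of heme synthesis, went the other way with -3.60, from 2.69 at 48 h to -0.91 at 96 h. Their adjusted p ran from 0.00126 to 0.00242. The spread of the T73 arrays of 48 h was wider than that of the others, and its part in these changes was not tested.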

How the results depend on the processing

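Of 227 named genes, 178 were called under every alternative run and 203 with each single array left out, and 0 changed direction. Scaling to one spread ended the call of 11, quantile normalization of 10, the fit of all 12 arrays of 37 among 212 tested, and the other settings that keep all 6 arrays of at most 7. The number of genes called at 96 h was 2486 and ran from 1569 to 2474 with 1 array left out. Higher genes ran from 873 to 1387 and lower genes from 696 to 1087, each lowest without T73 96 h replicate 1. The fit of all 12 arrays called 1229, 656 higher and 573 lower. Array weights, a robust prior, centring, scaling, quantile normalization, the filters and single probes kept the count within 1.5 times. The median over all genes, 0.01, was -0.0385 after centring and -0.0603 after quantile normalization, and ran from -0.02 to 0.04 with 1 array left out. The change between times was called for 2080 genes, 1215 with scaling, 1248 after quantile normalization and 3229 with array weights, and for 1277 to 2894 with 1 array left out. It was lowest without ITD00185 48 h replicate 1 (1310), ITD00185 96 h replicate 2 (1304), T73 96 h replicate 1 (1325) or T73 96 h replicate 3 (1277). The cause was not tested. The labels state no pairing by replicate number. Deviations of same-numbered arrays correlated at 0.03, -0.08 and -0.17 across genes, which with 3 arrays per strain cannot settle whether samples were paired. A replicate block called 2054 genes and ended the call of 7 named genes. Signal over background is not known, so which values are limited by dim spots cannot be said.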

Other observations

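Several other gene groups held calls in both directions, with shares to be read beside the 22.0% higher and 20.0% lower of all genes. Of 54 translation factors and tRNA synthetases 11 were higher (20.4%) and 12 lower (22.2%) in ITD00185. KRS1, lysyl-tRNA synthetase, stood at 1.84 ± 0.23 and YEF3, a translation elongation factor, at -1.80 ± 0.26. Without ITD00185 96 h replicate 2, ITD00185 96 h replicate 3, T73 96 h replicate 1 and T73 96 h replicate 3, the number of lower genes was 7, 6, 5 and 4, and without ITD00185 96 h replicate 2 only 6 were higher. Of 33 genes of mitochondrial protein import 8 were higher (24.2%) and 4 lower (12.1%), with the receptor TOM70 at 3.40 ± 0.47 and the motor protein SSC1 at 1.63 ± 0.21. Without ITD00185 96 h replicate 3, T73 96 h replicate 1 and T73 96 h replicate 3, 5, 5 and 4 were higher. Of 46 genes of peroxisomes and fatty acid oxidation 10 were higher (21.7%) and 5 lower (10.9%). PEX3 and PEX30, which shape peroxisomes at the endoplasmic reticulum, stood at 2.32 ± 0.28 and 2.25 ± 0.26. Without ITD00185 96 h replicate 3 and T73 96 h replicate 3, 5 and 6 were higher. Lower genes numbered 3 on scaled arrays, without ITD00185 96 h replicate 3 or without T73 96 h replicate 1, and 2 without ITD00185 96 h replicate 2 or T73 96 h replicate 3. PEX11, which drives their division, stood at 1.88 ± 0.23.

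Of 21 hypoxic and heme genes 5 were higher (23.8%) and 6 lower (28.6%), with MOT3, a repressor of hypoxic genes, at 2.73 ± 0.55. Without ITD00185 96 h replicate 3, T73 96 h replicate 1 or T73 96 h replicate 3 only 2 were higher. COX5B, the hypoxic subunit of cytochrome oxidase, read -0.81, -0.67 and -0.74 in ITD00185, against 0.49, 0.10 and 0.20 in T73. In the pentose phosphate pathway 2 of 13 were higher (15.4%) and 3 lower (23.1%), with SOL3 at -1.18 ± 0.27 and SOL4 at 1.12 ± 0.21. Without ITD00185 96 h replicate 2, ITD00185 96 h replicate 3 or T73 96 h replicate 1 only 1 was lower. Of 9 subtelomeric COS genes 1 was higher and 1 lower, with 2 higher without ITD00185 96 h replicate 1 and 2 lower on scaled arrays or without T73 96 h replicate 3. Of 4 aquaporin genes AQY3 was higher, and AQY1 stood lower, at -0.92, as deposited but stood at 0.23 and was not called on scaled arrays.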
